A study of Rattus norvegicus with 4 samples.

Results

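The genes described here make and release eicosanoids, the lipid mediators derived from arachidonic acid. The 10 members were taken by symbol from the deposited expression table, in any letter case, with the feature of the highest mean level kept where a symbol had several. All 10 symbols were found among the 27832 features of the table, each with 1 feature, and all 10 passed the filter used throughout (1 FPKM or more on average over the 4 libraries, which 15944 features met). Of these genes, 4 belong to prostaglandin synthesis (PTGS1, PTGS2, PTGES and HPGDS), 4 to leukotriene synthesis (ALOX5, ALOX5AP, LTA4H and LTC4S) and 2 encode secreted phospholipases A2 (PLA2G2A and PLA2G2D).

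RNA came from the mucosa scraped from the middle ear of Sprague-Dawley (SD) rats 1 week after an injection through the eardrum. The inoculum was medium only (vehicle control, here media), methicillin-resistant Staphylococcus aureus (MRSA), Pseudomonas aeruginosa (PA), or a mixed culture of the 2 species (MRSA + PA), with the bacteria given to the right ear as 50 µL of suspension in TSB medium that held 10000000 CFU (the treatment text describes MRSA for all samples). Each condition is represented by 1 library, 4 in all, and how many rats contributed to a library is not given in the sources used here. Levels are FPKM, which corrects fragment numbers for the length of the transcript and the size of the library, so levels of different genes can be set side by side. A log2 difference compares 2 libraries on the log2(FPKM + 0.1) scale, which understates the change of low genes, and the fold threshold is 2-fold (1 on the log2 scale). No spread between replicates exists, so no test was made, no interval can be given, and the order of libraries that lie close together cannot be read as a difference. How many reads stand behind a value is unknown, since the table holds no counts.

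As background, a phospholipase A2 frees arachidonic acid from membrane lipids, and the acid then enters either of the main enzymatic routes. In the prostaglandin route, the cyclooxygenases PTGS1 and PTGS2 form prostaglandin H2, which terminal synthases such as PTGES and HPGDS turn into prostaglandin E2 and prostaglandin D2. In the leukotriene route, ALOX5 works with its membrane partner ALOX5AP to form leukotriene A4, which LTA4H turns into the neutrophil attractant leukotriene B4 and LTC4S into leukotriene C4, the first of the cysteinyl leukotrienes. Secreted phospholipases A2 act outside the cell, and the group IIA enzyme is also known for attacking the membranes of Gram-positive bacteria.

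Of the 10 genes, 4 were at least 2-fold from media in some inoculated library: PTGS2, LTC4S, PLA2G2A and PLA2G2D. The other 6 lay within 2-fold of media in every inoculated library and within 2-fold of each other in all 6 pairs of libraries. The sequences before the start sites of the 4 genes are shown because these are the members whose levels set the account below. Each is 300 bases from RefSeq (build GRCr8), 250 before to 50 after the start that the table takes for the gene, written 5′ to 3′ on the gene's strand, with matches to any of 6 searched motifs in capitals. The table held such a window for 8 of the 10 members. The Pla2g2d window lies within the RefSeq span of the gene (156299374 to 156305816), so it does not precede the outermost annotated start.
Ptgs2, chr13:64713813-64714112, + strand: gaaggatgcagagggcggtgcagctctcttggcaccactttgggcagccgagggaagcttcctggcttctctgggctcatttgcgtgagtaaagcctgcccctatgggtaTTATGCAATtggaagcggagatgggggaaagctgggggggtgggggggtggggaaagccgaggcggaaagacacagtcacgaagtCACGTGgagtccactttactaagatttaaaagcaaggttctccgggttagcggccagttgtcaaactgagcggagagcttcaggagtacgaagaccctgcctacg
Ltc4s, chr10:35063545-35063844, - strand: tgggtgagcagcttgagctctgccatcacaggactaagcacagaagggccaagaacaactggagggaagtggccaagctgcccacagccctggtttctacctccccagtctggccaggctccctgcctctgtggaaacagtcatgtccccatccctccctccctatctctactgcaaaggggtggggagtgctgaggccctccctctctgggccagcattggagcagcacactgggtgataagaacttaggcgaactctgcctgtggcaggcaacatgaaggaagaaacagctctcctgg
Pla2g2a, chr5:156359475-156359774, + strand: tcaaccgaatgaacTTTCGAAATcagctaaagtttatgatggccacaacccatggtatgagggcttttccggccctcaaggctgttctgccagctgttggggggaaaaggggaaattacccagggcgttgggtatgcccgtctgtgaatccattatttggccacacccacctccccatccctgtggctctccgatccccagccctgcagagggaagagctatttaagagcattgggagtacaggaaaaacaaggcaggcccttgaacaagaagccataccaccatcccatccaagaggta
Pla2g2d, chr5:156299382-156299681, + strand: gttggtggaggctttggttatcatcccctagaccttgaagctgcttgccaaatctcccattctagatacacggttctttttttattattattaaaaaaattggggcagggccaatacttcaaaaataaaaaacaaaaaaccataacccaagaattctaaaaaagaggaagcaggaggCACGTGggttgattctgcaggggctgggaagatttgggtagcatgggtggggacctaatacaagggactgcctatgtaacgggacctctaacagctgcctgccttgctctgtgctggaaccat

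The motifs were searched on both strands: the TATA box as TATAAA, the C/EBP motif as TTNNGNAAT, the E-box as CACGTG, the AP-1 motif as TGANTCA, the STAT motif as TTCNNNGAA, and the NF-kB consensus. The Ptgs2 window held a C/EBP match at position -140 from the start and an E-box at -55. An E-box stood at -73 in the Pla2g2d window and a C/EBP match at -236 in the Pla2g2a window, none of them overlapping another, while the Ltc4s window matched none of the 6. Among all 33469 windows of the same length, 12.3% held the C/EBP letters and 6.42% the E-box letters. The shares for the other motifs were 14.2% for the TATA box, 7.33% for AP-1, 8.87% for STAT and 7.51% for NF-kB. A match describes letters in the window and says nothing of binding.

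**Figure D1:**
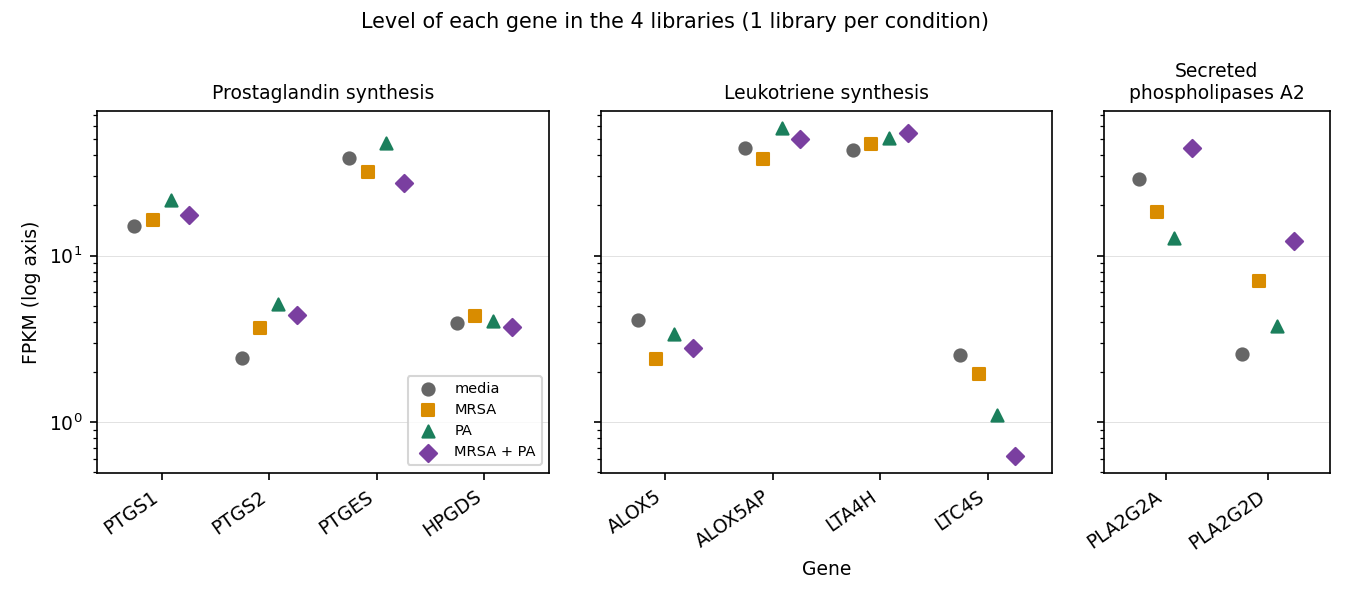
FPKM (log axis) of the 10 genes, grouped by route, in the media, MRSA, PA and MRSA + PA libraries; each point is 1 library and there are no error bars. LTC4S runs from 2.54 FPKM in media to 0.625 in MRSA + PA, while LTA4H stays between 43.2 and 54.1 FPKM.

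The cyclooxygenases were both highest in PA and lowest in media, although PTGS1 in MRSA stood below media (-0.13 on the log2 scale) after rescaling to equal FPKM sums. PTGS2, the inducible cyclooxygenase (chromosome 13, positions 72315554 to 72324477 in the deposited table, which names no genome build), had 2.41 FPKM in media, 3.68 with MRSA, 5.15 with PA and 4.41 with MRSA + PA. Its log2 difference from media was 0.59 with MRSA, 1.06 with PA and 0.84 with MRSA + PA, so that PA alone passed 2-fold. The PA difference was 0.85 with 1 FPKM added in place of 0.1, and just under 2-fold (1.00, rounded) after median-of-ratios scaling. PTGS1, the constitutive cyclooxygenase (chromosome 3), had 14.9 FPKM in media, 16.4 with MRSA, 21.5 with PA and 17.6 with MRSA + PA, a difference of at most 0.52. The level of PTGS1 therefore exceeded that of PTGS2 in each library. Within a library, where scaling cancels, the ratio of PTGS2 to PTGS1 was 0.162 in media, 0.224 with MRSA, 0.240 with PA and 0.251 with MRSA + PA. An unnamed feature on the opposite strand overlaps 863 bases at the PTGS2 locus with 1.76, 2.03, 2.85 and 3.06 FPKM in the order media, MRSA, PA and MRSA + PA; the library kit does not mark strand, so reads of the shared stretch cannot be assigned to either.

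The terminal prostaglandin synthases did not follow the cyclooxygenases. PTGES, the inducible synthase of prostaglandin E2 (chromosome 3), had 38.5 FPKM in media, 31.5 with MRSA, 47.2 with PA and 27.2 with MRSA + PA. It was thus highest in PA like the cyclooxygenases, but lowest in MRSA + PA, where PTGS2 stood above media. Its widest gap was between these 2 libraries, with a log2 difference of -0.79 for MRSA + PA against PA. HPGDS, the prostaglandin D2 synthase of mast cells and other blood-derived cells (chromosome 4), had 3.91, 4.31, 4.07 and 3.71 FPKM in the order media, MRSA, PA and MRSA + PA. HPGDS varied least of the 10 genes, its highest level being 1.16 times its lowest. The 12 mast cell marker genes, all found in the table and none at 0, summed to 75.2 FPKM in media, 95.7 with MRSA, 84.2 with PA and 57.6 with MRSA + PA. They did not move together: KIT had 6.02, 11.1, 18.0 and 10.7 FPKM, whereas GATA2 had 11.3, 6.98, 5.36 and 6.15 FPKM. The part of mast cells in the levels of these synthases was not tested. Fewer cells of a type and less RNA per cell cannot be told apart in these bulk samples.

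In the leukotriene arm, ALOX5AP and LTA4H were abundant and close to media, ALOX5 and LTC4S were scarce, and LTC4S was the lone gene of this arm past 2-fold. LTC4S, the synthase of leukotriene C4 (chromosome 10, 35498266 to 35500227 in the deposited table), had 2.54 FPKM in media, 1.95 with MRSA, 1.11 with PA and 0.625 with MRSA + PA. The media level was 4.07 times that of MRSA + PA. Its log2 difference from media was -0.37 with MRSA, -1.13 with PA and -1.87 with MRSA + PA, and MRSA was 2.83-fold above MRSA + PA. It went from media to MRSA + PA without a reversal, in the order media, MRSA, PA, MRSA + PA. With 1 FPKM added, the difference from media was -0.75 in PA and -1.13 in MRSA + PA, and that between MRSA + PA and MRSA was -0.86, under 2-fold; after rescaling to equal sums over features of at least 300 bp, that in PA was -0.97. LTC4S had the lowest mean of the 10 genes, 1.56 FPKM, at percentile 7.31 of the features past the filter. The 8 skeletal muscle markers had the same order of libraries but a far wider fall. Their sums were 8109, 3180, 11.7 and 5.09 FPKM in the order media, MRSA, PA and MRSA + PA. All 8 were at least 2-fold below media in each inoculated library, beside 4.95%, 7.80% and 7.83% of all features. MYH4 was at 0 in MRSA + PA. Eosinophil markers, 6 of 8 in the table, summed to 18.8, 25.6, 14.9 and 16.3 FPKM in that order of libraries. Of the 5 past the filter, 2 were at least 2-fold above media in PA and 3 below, beside 10% and 7.80%. The eosinophil sums and the mast cell sums given above were highest in MRSA, unlike LTC4S. The 6 adipocyte markers summed to 206, 415, 197 and 183 FPKM, and did not move together. PLIN1 and LEP were at 0 in MRSA + PA and ADIPOQ had 35.4, 6.79, 1.14 and 0.271 FPKM, whereas FABP4 had 113, 264, 113 and 106 FPKM and LPL 46.3, 142, 82.2 and 76.3 FPKM. The part of tissue makeup in the LTC4S levels was not tested.

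ALOX5, the 5-lipoxygenase that opens this route (chromosome 4), had 4.10 FPKM in media, 2.38 with MRSA, 3.39 with PA and 2.79 with MRSA + PA. All inoculated libraries stood below media, by 0.76 with MRSA, 0.27 with PA and 0.54 with MRSA + PA on the log2 scale, none of them past 2-fold; after rescaling to equal FPKM sums the difference in MRSA was -1.02. ALOX5AP, the partner that presents arachidonic acid to ALOX5 (chromosome 12), had 44.2, 38.2, 58.4 and 50.3 FPKM in the order media, MRSA, PA and MRSA + PA, and so was highest in PA and lowest in MRSA. The ratio of ALOX5AP to ALOX5 was 10.8 in media, 16.1 with MRSA, 17.2 with PA and 18.0 with MRSA + PA. LTA4H, which forms leukotriene B4 (chromosome 7), had 43.2, 47.0, 50.8 and 54.1 FPKM in the same order, with log2 differences from media of 0.12 (-0.14 after rescaling to equal FPKM sums), 0.23 and 0.32. The 2 enzymes that compete for leukotriene A4 were therefore far apart: the ratio of LTA4H to LTC4S was 17.0 in media, 24.1 with MRSA, 45.9 with PA and 86.6 with MRSA + PA.

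ALOX5 and its partner ALOX5AP are known from neutrophils, macrophages and mast cells. The macrophage and monocyte markers, 12 of 14 in the table, summed to 674 FPKM in media, 2331 with MRSA, 1681 with PA and 1624 with MRSA + PA, with MARCO at 0 in all but MRSA + PA. Neutrophil markers, 12 of 13 in the table, summed to 504, 680.0, 679.5 and 777 FPKM, with LTF at 0 in all but PA. Of the 10 past the filter, 2, 2 and 3 were at least 2-fold above media, beside 8.47%, 10% and 7.78% of all features. In PA 1 was below, beside 7.80%. CSF3R had 2.25, 9.04, 30.4 and 10.1 FPKM, and MPO 3.55, 2.61, 1.52 and 2.75 FPKM. Of the macrophage markers past the filter, 7 of 11 with MRSA, 4 with PA and 5 with MRSA + PA were at least 2-fold above media, beside 8.47%, 10% and 7.78% of all features. LYZ2, a lysozyme, was at least 2-fold below media with PA and with MRSA + PA, at 9.62, 106, 0.731 and 0.850 FPKM. ALOX5 was below media in the inoculated libraries, and what part these cells had in the ALOX5 levels was not tested.

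**Figure D2:**
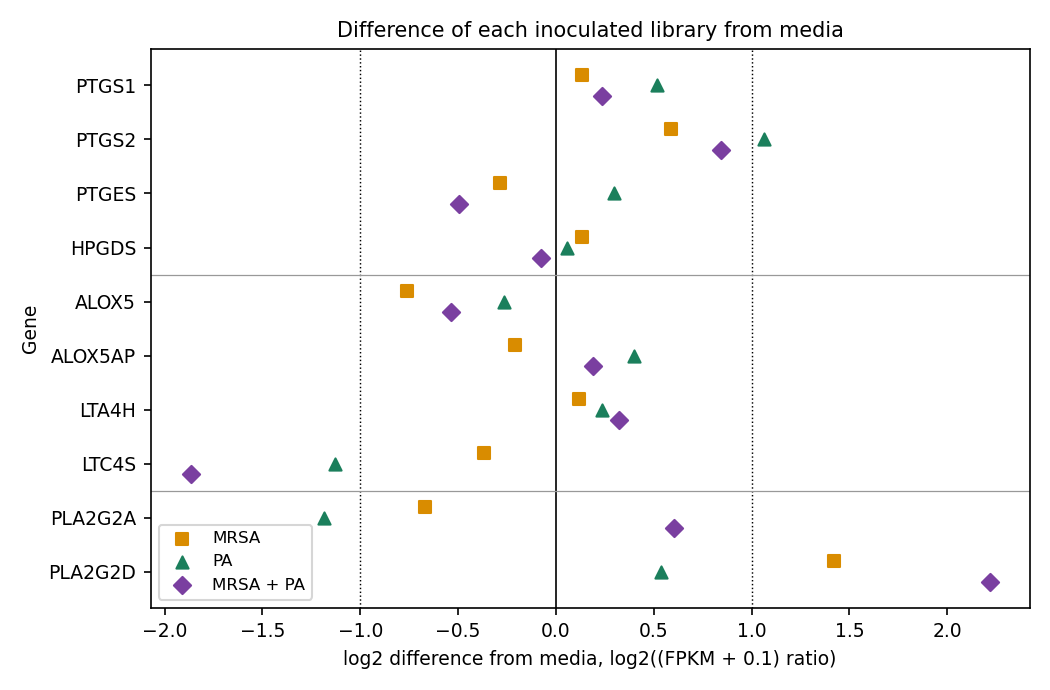
Log2 difference from media of the 10 genes in the MRSA, PA and MRSA + PA libraries; horizontal lines separate the prostaglandin, leukotriene and phospholipase genes, and dotted lines mark 2-fold. LTC4S lies at -1.87 and PLA2G2D at 2.22 in MRSA + PA, and HPGDS lies next to 0 in each library.

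The arms overlapped widely in their differences from media, and the order of their medians depended on the filter. At 1 FPKM the prostaglandin median was the higher in each inoculated library. At 5 FPKM, which PTGS2, HPGDS, ALOX5 and LTC4S did not reach, it was the lower in MRSA (-0.08 against -0.05) and in MRSA + PA (-0.13 against 0.26), and the higher in PA (0.41 against 0.32). With all members, the median log2 difference of the 4 prostaglandin genes was 0.13 in MRSA (-0.13 after rescaling to equal FPKM sums), 0.41 in PA and 0.08 in MRSA + PA. For the 4 leukotriene genes it was -0.29 in MRSA, -0.02 in PA (0.15 after rescaling to equal sums over features of at least 300 bp) and -0.18 in MRSA + PA. The medians over all 15944 features tested were 0.05, 0.07 and 0.05. Members ranged from -0.29 to 0.59 in the prostaglandin arm and from -0.76 to 0.12 in the leukotriene arm in MRSA, from 0.05 to 1.06 and from -1.13 to 0.40 in PA, and from -0.50 to 0.84 and from -1.87 to 0.32 in MRSA + PA. The gap between the arm medians (prostaglandin minus leukotriene) was 0.42 with MRSA, 0.42 with PA and 0.25 with MRSA + PA, all of them set against the same media library. It was -0.27 for MRSA + PA against MRSA, -0.01 for MRSA + PA against PA and 0.12 for PA against MRSA. Summed over its 4 genes, the prostaglandin arm had 59.8 FPKM in media, 55.9 with MRSA, 77.9 with PA and 53.0 with MRSA + PA, and the leukotriene arm 94.0, 89.4, 114 and 108 FPKM. The leukotriene sum was 1.57, 1.60, 1.46 and 2.04 times the prostaglandin sum in media, MRSA, PA and MRSA + PA, a sum that ALOX5AP and LTA4H dominate.

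The secreted phospholipases were the members furthest apart between inocula, and both were highest in MRSA + PA. PLA2G2A, the group IIA enzyme (chromosome 5, 161024073 to 161026647), had 29.0 FPKM in media, 18.2 with MRSA, 12.7 with PA and 44.2 with MRSA + PA. Both single inocula thus stood below media and the mixed inoculum above it. Its log2 difference was -0.67 for MRSA, -1.19 for PA and 0.61 for MRSA + PA against media. Set directly against the single inocula, MRSA + PA was 2.42-fold higher than MRSA and 3.46-fold higher than PA. PLA2G2D, a group IID enzyme known in mice from dendritic cells and macrophages of lymphoid tissue (chromosome 5, 160962298 to 160970152), was at 2.56 FPKM in media, 7.02 with MRSA, 3.76 with PA and 12.3 with MRSA + PA. Here media was lowest, and the log2 difference from media was 1.42 with MRSA, 0.54 with PA and 2.22 with MRSA + PA. Against PA, MRSA + PA was 3.20-fold higher. Against MRSA it was 1.74-fold higher, a log2 difference of 0.80 that became 1.23 after rescaling to equal FPKM sums. PLA2G2A was 11.3 times PLA2G2D in media, but 2.59 times with MRSA, 3.37 times with PA and 3.60 times with MRSA + PA. Of 8 dendritic cell markers, 7 were in the table and none at 0. They summed to 81.0 FPKM in media, 155 with MRSA, 144 with PA and 141 with MRSA + PA. SIRPA was the largest, with 45.1, 83.1, 82.4 and 71.97 FPKM in the same order. FLT3 had 5.14, 11.6, 7.76 and 11.2 FPKM, and CLEC9A 5.01, 13.8, 8.36 and 11.8 FPKM. FLT3, CLEC9A and CD1D were lowest in media and next lowest in PA, as PLA2G2D was, whereas the other markers were not. The part of dendritic cells and macrophages in the PLA2G2D level was not tested.

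Both phospholipases lie in a cluster of 6 secreted phospholipase genes on chromosome 5 that spans 166 kb, with 53.9 kb between them. PLA2G5, the group V enzyme, lies on the opposite strand and its span contains the whole of PLA2G2A. It had 15.0 FPKM in media, 7.58 with MRSA, 6.70 with PA and 13.2 with MRSA + PA, lower with each single inoculum than in media or MRSA + PA, as PLA2G2A was. Its log2 difference from media was -0.97, -1.15 and -0.17, so it passed 2-fold in PA alone. Since the library kit does not mark strand, reads from any exon stretch that both genes cover cannot be told apart, and PLA2G2A and PLA2G5 values are uncertain to that degree. PLA2G2A was 1.94, 2.40, 1.89 and 3.34 times PLA2G5 in media, MRSA, PA and MRSA + PA. PLA2G2D shares no stretch with another feature. The remaining genes of the cluster were low, apart from PLA2G2F in PA. PLA2G2F, the group IIF enzyme known from mouse epidermis, was listed at 0 in media. It had 0.0862, 6.47 and 0.493 FPKM in MRSA, PA and MRSA + PA, and in PA it stood above the 3.76 FPKM of PLA2G2D. PLA2G2C did not exceed 1.02 FPKM (it was named after its values were seen), and PLA2G2E did not exceed 0.246 FPKM.

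**Figure D3:**
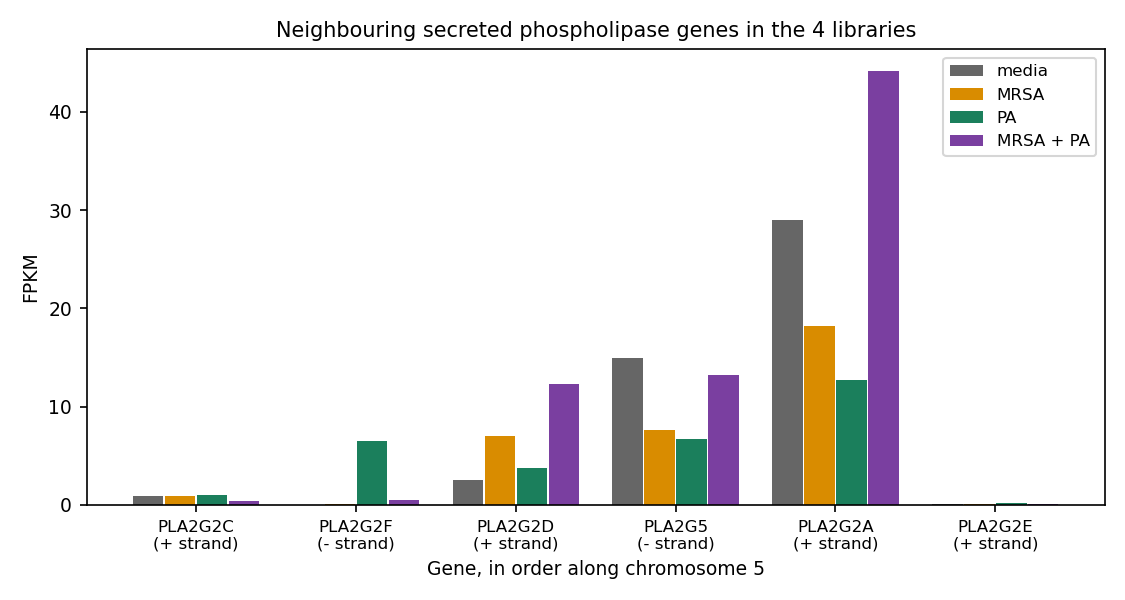
FPKM of the 6 neighbouring secreted phospholipase genes, in their order along chromosome 5, in the media, MRSA, PA and MRSA + PA libraries; each bar is 1 library. PLA2G2A reaches 44.2 FPKM in MRSA + PA against 12.7 in PA, and PLA2G2F has 6.47 FPKM in PA.

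Counts of members past 2-fold are set here beside the share of all features past the same threshold in the same direction, the members' counts being of 1 library against 1. Against media in MRSA, 1 of 10 members was at least 2-fold higher (PLA2G2D), beside 8.47% of all features, and 0 were lower, beside 4.95%. For PA the counts were 1 higher (PTGS2), beside 10% of all features, and 2 lower (LTC4S and PLA2G2A), beside 7.80%. For MRSA + PA they were 1 higher (PLA2G2D), beside 7.78%, and 1 lower (LTC4S), beside 7.83%. Between inocula, MRSA + PA had 1 member at least 2-fold above MRSA (PLA2G2A), beside 1.61%, and 1 below (LTC4S), beside 5.73%. Compared with PA, MRSA + PA had 2 members above (PLA2G2A and PLA2G2D), beside 2.50%, and 0 below, beside 4.27%. PA and MRSA differed 2-fold in no member, with backgrounds of 3.54% higher and 5.03% lower. Ranked among all 15944 features by the difference of MRSA + PA against PA, PLA2G2A was at percentile 99.1 and PLA2G2D at 98.9; both libraries are single.

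Other genes of eicosanoid release, synthesis, breakdown and reception came from a list that holds no member. Of 65 listed symbols, 63 were in the table and 46 passed the filter. In MRSA 5 of the 46 were at least 2-fold higher (10.9%) and 4 lower (8.70%). With PA, 10 of them exceeded media (21.7%) and 8 stood below it (17.4%). With MRSA + PA these numbers were 4 (8.70%) and 5 (10.9%). All 3 sets share the media library, and the background shares given above apply. The median log2 difference over the 46 was 0.14, 0.11 and 0.13. Among other phospholipases, PLA2G7, the plasma enzyme that degrades platelet-activating factor, had 24.5 FPKM in media, 116 with MRSA, 85.4 with PA and 94.9 with MRSA + PA, next to the macrophage marker sums given above. PLA2G15, the lysosomal phospholipase, had 13.8 FPKM in media, 30.0 with MRSA, 28.5 with PA and 26.5 with MRSA + PA, a log2 difference of 1.11 with MRSA, 1.04 with PA and 0.94 with MRSA + PA. PLA2G4A, the cytosolic enzyme held to feed both routes, was within 2-fold of media throughout at 16.3, 22.2, 25.5 and 24.5 FPKM (it was named after its values were seen). PLA2G16, the most abundant of this group, stayed between 137 and 164 FPKM.

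PLA2G4F, a cytosolic enzyme, had 0.142 FPKM in media, 0.245 with MRSA, 7.68 with PA and 0.237 with MRSA + PA. PLA2G4B, which overlaps SPTBN5 on the opposite strand by 760 bases, had 3.51, 4.73, 8.37 and 5.54 FPKM. PLA2R1, a receptor for secreted phospholipases, had 1.57, 2.73, 4.18 and 2.36 FPKM. All of these were highest in PA, but PLA2G4F, like PLA2G2F and LTB4R (described below), reached the filter only through its level in PA. Passing the filter in PLA2G4F, PLA2G2F and LTB4R thus required a high PA level, and each adds to the PA count above. PLA2G4B and PLA2R1 did not need their PA level to pass. Of the 10 airway epithelial markers, 4 were at least 2-fold above media in PA, against 1 in MRSA and 2 in MRSA + PA, beside 10%, 8.47% and 7.78% of all features. BPIFA1, a secreted protein of airway epithelium, was at least 2-fold below media in MRSA and PA, with 25725, 11118, 7472 and 13362 FPKM, and made up most of the list's sum of 26521, 12571, 10064 and 15036 FPKM. KRT5, a basal keratin, was at 83.6, 95.4, 393 and 175 FPKM in the order media, MRSA, PA and MRSA + PA. Whether epithelial makeup set the phospholipase levels in PA was not tested.

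Further along the prostaglandin route, the thromboxane and prostacyclin synthases lay on opposite sides of media. TBXAS1, which forms thromboxane A2, had 11.9 FPKM in media, 30.9 with MRSA, 30.9 with PA and 30.2 with MRSA + PA, so that the inoculated libraries were close to each other. PTGIS, the prostacyclin synthase of vessel walls and fibroblasts, had 18.2, 9.63, 5.63 and 12.7 FPKM; its span in the table also contains B4GALT5 on the same strand, so its value is uncertain. The ratio of TBXAS1 to PTGIS was 0.654 in media, 3.21 with MRSA, 5.50 with PA and 2.37 with MRSA + PA. The 9 fibroblast markers summed to 11113 FPKM in media, 6644 with MRSA, 6366 with PA and 5510.0 with MRSA + PA. Of these, 1, 3 and 3 were at least 2-fold below media, beside 4.95%, 7.80% and 7.83% of all features. They did not move together: COL1A1, the largest, had 3463, 1872, 1704 and 1171 FPKM, whereas PDGFRA had 36.7, 38.7, 48.4 and 51.7 FPKM. The 7 endothelial markers summed to 174, 133, 136 and 158 FPKM. The part of these cells in the PTGIS levels was not tested. PTGES3 and CBR1, the most abundant of the remaining synthases, were within 2-fold of media in each inoculated library, at 176 to 197 and 42.2 to 47.7 FPKM. Of the receptors, PTGER3, which binds prostaglandin E2, had 5.25, 2.82, 1.45 and 1.35 FPKM. PTGER2 and PTGFR, the most abundant prostanoid receptors, stayed within 2-fold of media, with 9.06 to 15.0 and 17.4 to 23.0 FPKM. No gene of prostaglandin transport or breakdown passed 2-fold, and SLCO2A1, the uptake carrier, ranged from 7.24 to 11.8 FPKM and PTGR1, a reductase, from 27.0 to 36.8 FPKM.

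On the leukotriene side, DPEP1, a dipeptidase that converts leukotriene D4, had 16.7 FPKM in media, 6.10 with MRSA, 4.53 with PA and 4.75 with MRSA + PA. DPEP2, a related dipeptidase, went the other way with 2.72, 5.68, 4.04 and 4.47 FPKM. MGST2, a microsomal enzyme that can also form leukotriene C4, was far above LTC4S at 116, 135, 125 and 138 FPKM (it was named after its values were seen), and MGST1 stayed between 184 and 197 FPKM. CYSLTR1, the receptor for cysteinyl leukotrienes, was highest in PA with 2.43, 3.69, 6.08 and 3.26 FPKM, as was LTB4R, the leukotriene B4 receptor, with 0.756, 0.990, 1.61 and 0.852 FPKM. LTB4R passed the filter only through PA, where its log2 difference from media was just past 2-fold (1.00, rounded). Among other lipoxygenases, ALOX15 had 11.3 FPKM in media, 2.48 with MRSA, 1.66 with PA and 2.58 with MRSA + PA, the lowest log2 difference being -2.69 in PA. ALOX12, the platelet-type enzyme, stayed within 2-fold of media with 8.95, 8.07, 14.9 and 9.37 FPKM. GPR18, a receptor of lymphocytes, had 1.91, 7.90, 9.20 and 6.47 FPKM, though its span lies within UBAC2 on the opposite strand. ANXA1, which restrains phospholipase A2, ranged from 519 to 682 FPKM. Some differences rest on short features: the GGT5 feature kept by the rule is 137 bp long with 2019, 452, 983 and 580 FPKM, whereas the 1910 bp feature had between 17.1 and 20.9 FPKM. The FPR2 feature kept is 233 bp long (75.3, 4.99, 8.77 and 4.86 FPKM). The 8292 bp FPR2 feature was low but also at least 2-fold below media throughout (0.957, 0.428, 0.192 and 0.386 FPKM). The 1041 bp FPR2 feature was below media within 2-fold (0.382, 0.206, 0.148 and 0.145 FPKM). LGR6 has 2 features, neither of them short. The one kept, of 1692 bp, had 3.51, 2.06, 1.59 and 2.41 FPKM. The other, of 115749 bp, was also below media, within 2-fold (1.203, 0.811, 0.598 and 0.956 FPKM). Restricted to features of at least 300 bp, a choice made after the data were seen, the lower counts were 2 with MRSA, 6 with PA and 3 with MRSA + PA.

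**Figure D4:**
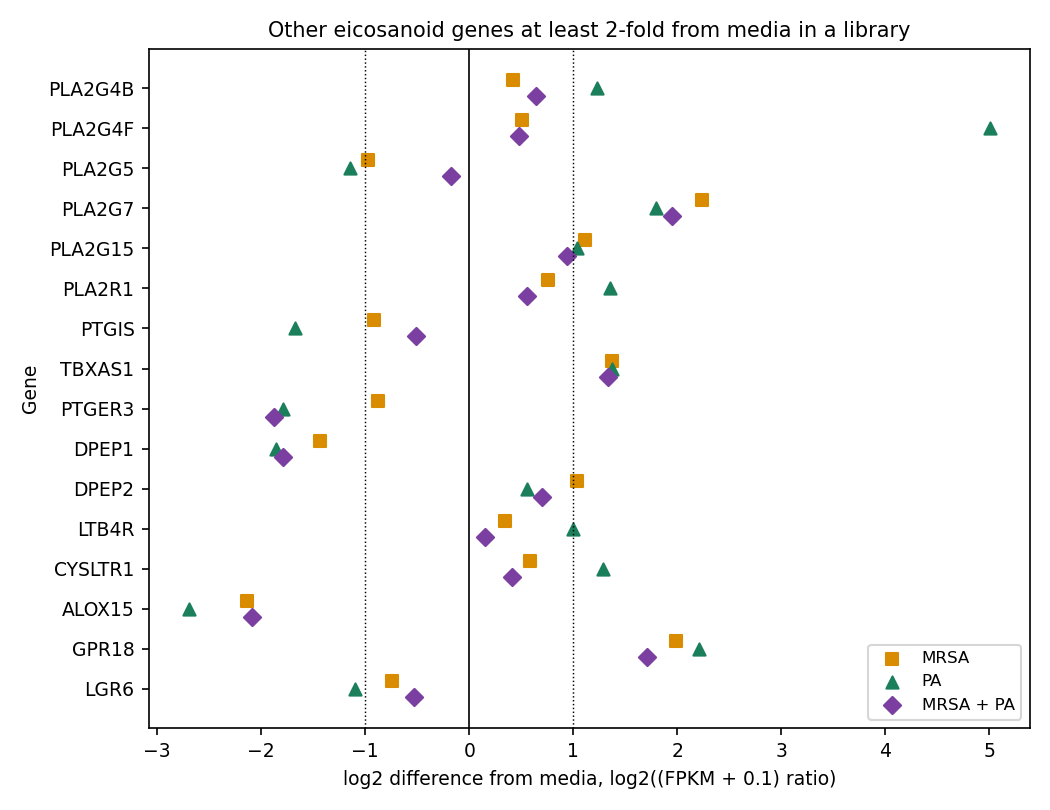
Log2 difference from media of the 16 other eicosanoid genes that were at least 2-fold from media in an inoculated library, leaving out PLA2G2F (listed at 0 in media) and the features of GGT5 and FPR2 under 300 bp; dotted lines mark 2-fold. ALOX15 and DPEP1 lie left of -1 in each library, TBXAS1 and PLA2G7 right of 1, and PLA2G4F lies apart in PA.

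For the widest-ranging gene of each group, the named features with the closest profile over the 4 libraries were listed, by the root mean square difference of centred log2 levels among 10856 or 10857 features that reached 5 FPKM on average. For PTGS2 these were CDKN3, Entpd1 and Mical2, at distances of 0.01 to 0.03, but 1360 features lay within 0.25 of it. LTC4S had 34 features within that distance, the nearest being Mark3, Rusc2 and AK9 (0.08 to 0.13). PLA2G2D had 8, the nearest being ELL3, Klrb1b and Ctsw (0.18 to 0.22). With 4 libraries such likeness is a description of 4 values.

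The facts of the libraries that touch these values are few. Between 21504 and 21898 features were above 0 FPKM per library, and features under 300 bp held 49.2% to 63.1% of the FPKM sum. Rescaling to equal FPKM sums put the median log2 difference from media over all features past the filter at -0.21 with MRSA, 0.05 with PA and 0.23 with MRSA + PA, that of MRSA + PA against MRSA at 0.43, against PA at 0.16, and that of PA against MRSA at 0.24. Equal sums over features of at least 300 bp put PA against media at 0.24. The split of all features past 2-fold moved with the equal sums too, from 1350 higher and 789 lower to 987 and 1247 with MRSA, and from 1240 and 1249 to 1601 and 1015 with MRSA + PA. For MRSA + PA it went from 256 and 914 to 703 and 540 against MRSA, and from 399 and 681 to 578 and 537 against PA; for PA against MRSA it went from 565 and 802 to 821 and 604. With the sums over longer features the PA split against media went from 1602 and 1243 to 1978 and 994. All 10 airway epithelial markers were above 0 in each library, EPCAM among them with 222 to 266 FPKM.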

How the data were processed

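Middle ear mucosa RNA of 4 rat libraries was sequenced (Illumina HiSeq2500), 1 library per condition. The authors deposited FPKM per feature: according to the submitters' processing notes, alignment used STAR 2.3.0e and quantification Cufflinks 2.1.1, with correction for multiply mapped reads and fragment bias. The methods name the human reference, whereas the deposited features carry rat chromosomes, and no build is named. The authors' 3 deposited comparison tables hold their own log2 ratios and test values and 12 columns giving the same libraries again. None of these was used.

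Log2 ratios were computed after adding 0.1 FPKM to features averaging 1 FPKM or more, and 2-fold differences were counted, with the share of all features past the same threshold as background. No test was made. Every member is named. Other eicosanoid genes are named where at least 2-fold from media, or among the 2 most abundant of a role, and again averaging 1 FPKM or more, and for the widest-ranging member of each group the 3 nearest profiles are named. The number of reads per library and per value is not in the table. The members and lists were chosen with earlier results of these data known. Alternatives were 1 or 0.01 FPKM added, 3 rescalings, no filter or 5 FPKM, summed features, and 1.5-fold or 3-fold thresholds. The arithmetic was tested on simulated data. Python 3.11.15, numpy 2.4.6, pandas 2.3.3 and matplotlib 3.10.9 were used, with RefSeq promoter windows of build GRCr8.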

Additional observations from a re-analysis of the deposited data

How the results depend on the processing

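Small counts moved easily. The share of all features is not given for the other added values, fold thresholds and filters. Those counts therefore describe only how the numbers move with the setting. With 1 FPKM added, members at least 2-fold higher in PA than media numbered 0 and lower 1, and those lower in MRSA + PA than MRSA 0. After median-of-ratios scaling 0 members were higher in PA than media. Rescaling to equal FPKM sums gave 1 member lower in MRSA and 2 higher in MRSA + PA than media, 2 higher in MRSA + PA than MRSA, and among other eicosanoid genes 3 higher and 7 lower in MRSA. Equal sums over features of at least 300 bp gave 1 member and 5 other genes lower in PA. Without a filter 7 other genes were lower in MRSA and 17 higher in PA. At a mean of at least 5 FPKM, 0 members were higher and 1 lower in PA than media, 0 lower in MRSA + PA than media and 0 lower than MRSA; other genes numbered 5 higher and 5 lower in PA and 3 lower in MRSA + PA.

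At 1.5-fold, members numbered 2 higher and 2 lower in MRSA and 3 higher in MRSA + PA than media, 2 higher in MRSA + PA than MRSA, 2 lower in MRSA + PA than PA, and 1 higher and 2 lower in PA than MRSA. Other genes at 1.5-fold numbered 9 higher and 11 lower in MRSA, 17 higher in PA, and 11 higher and 8 lower in MRSA + PA. At 3-fold 0 members were higher in MRSA, 0 higher and 0 lower in PA than media, and 0 higher and 0 lower in MRSA + PA than MRSA, while 2 other genes were higher in MRSA and 4 higher and 5 lower in PA. With features of at least 300 bp, chosen after the data were seen, 2 other genes were lower in MRSA and 3 in MRSA + PA. At a mean of at least 5 FPKM, which left fewer members, arm medians changed sign (prostaglandin to -0.08 in MRSA and -0.13 in MRSA + PA, leukotriene to 0.32 in PA and 0.26 in MRSA + PA), and the leukotriene median became the higher in MRSA and MRSA + PA. The cause of moves under rescaling was not tested. Summing features and adding 0.01 FPKM moved no count by over 1.5 times, and no member past 2-fold changed sign under any alternative. No paired analysis was possible because each condition has 1 library.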

Other observations

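PLA2G2A was outside the rule for similar profiles, and its nearest features were looked up after its values were seen. Of the features averaging 5 FPKM or more, 7 lay within 0.25 of its centred log2 profile, and the 3 nearest were Dcstamp, Ibsp and Acp5, at distances of 0.16, 0.20 and 0.20. Dcstamp, a fusion protein of osteoclasts that has 2 features in the table, had 18.3 FPKM in media, 15.3 with MRSA, 9.98 with PA and 35.1 with MRSA + PA. Acp5, the osteoclast acid phosphatase, had 424, 395, 221 and 807 FPKM, and Ibsp, a bone matrix protein, 257, 122, 88.9 and 270.5 FPKM. All 3 were lowest in PA and highest in MRSA + PA, as PLA2G2A was, which their choice by likeness to its profile largely fixed in advance. Likeness over 4 libraries is a description, and the part of bone cells in the PLA2G2A level was not tested.

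The following genes of the wider list did not reach a mean of 1 FPKM and were chosen after their values were seen, for being highest in PA, so that their shared direction comes from the choice. ALOX12B, a lipoxygenase of the skin barrier, was listed at 0 in media and MRSA and had 1.01 FPKM in PA and 0.0388 in MRSA + PA. ALOXE3, its partner enzyme, had 0.629, 0.323, 1.46 and 0.425 FPKM in the order media, MRSA, PA and MRSA + PA. PLA2G4E had 0.305, 0.0639, 2.43 and 0.0551 FPKM, and PLA2G4D 0.453 FPKM in PA with the other 3 libraries listed at 0.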
